A study of Xenopus laevis with 12 samples.

Results

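The genes that drive cells into mitosis, hold them there and pull their chromosomes apart were followed across 4 tissues of the *Xenopus laevis* embryo. A member was any array probe set whose single gene symbol named an A, B, D or E cyclin, a classical cyclin-dependent kinase (Cdk), a regulator of Cdk1, a part of the anaphase-promoting complex (APC/C), a mitotic kinase, a checkpoint or kinetochore protein, a condensin or cohesin subunit, or a motor or scaffold of the spindle and midbody. Members were matched by symbol, from a list drawn up with earlier results of these data known. It gave 139 probe sets of 90 genes, out of 15491 probe sets tested, whose single symbols name 6504 genes. Because *X. laevis* carries a long (L) and a short (S) copy of many genes, the 90 genes stood for 118 symbols, and 41 of them were read by several probe sets. A few members owe their place to their name more than to mitosis, among them *mad2l2* (DNA repair and signalling), *nek8* (cilia), *cdk5* (nerve cells), *smc5* and *smc6* (DNA repair) and *pttg1ip* and *cdkn2aip*, which are partners of other proteins.

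RNA was hybridised to 12 Affymetrix *X. laevis* arrays at stage 15, when the neural plate is open, with 3 arrays each of eye field (EF, labelled eye primordia), posterior neural plate (PNP), lateral endoderm (LE) and whole embryos. EF pieces included the mesendoderm below the plate, LE came from the side of the embryo, behind the level of EF and ahead of PNP, and each regional array pooled many such pieces. Single arrays are named by group and replicate number, as in EF 1 or whole embryo 1. The triplicates came from different days and females. No treatment, allele or strain is named for any group. Values are log2 of the deposited signal, so a difference of 1 is 2-fold, and errors are the standard error of the fitted difference with 3 arrays per group. A member was called higher or lower when limma, fitted over all probe sets and arrays, gave a Benjamini-Hochberg adjusted p under 0.05.

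The labelled tissues were checked against their markers. Of 20 probe sets of eye field genes 17 were higher in EF than whole embryos, and all 8 of posterior genes were higher in PNP. Of 12 endoderm probe sets 1 was higher in LE and 0 were lower, with a summed signal of 722 to 818 in LE, 646 to 826 in whole embryos and 71.6 to 98.3 in EF and PNP. The summed signal of epidermal markers was 6339 to 7539 in LE against 6590 to 7436 in whole embryos. Epidermal RNA was thus present in the libraries labelled lateral endoderm. Of the 9 epidermal probe sets 0 were higher in LE than whole embryos, 3 were lower, each by at least 2-fold, and 6 did not pass. Replicate 3 of PNP and of LE stood apart in their added bacterial control RNA, at mean log2 signals of 9.90 and 10.05 against 8.99 to 9.64 on the other arrays, and counts without both are given below. The whole embryo arrays had the lowest control signals, at 8.99 to 9.12, where the regional arrays had 9.16 to 10.05. The highest Bacillus control on each array, at 2.10 to 2.77, served as the ceiling of background. This ceiling too was lowest on the whole embryo arrays, at 2.10 to 2.24 against 2.26 to 2.77 on the regional ones. The part of these array differences in the comparisons with whole embryos was not tested. The ceiling was exceeded on all 12 arrays by 109 members, on some by 29 and on none by 1, a second probe set of *wee1.S*.

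Cyclin-dependent kinases are switched on by cyclins, held back by the inhibitory kinases Wee1 and Myt1 and released by the Cdc25 phosphatases. Active Cdk1 with cyclin B opens mitosis, condensins then compact the chromosomes, kinetochores attach them to the spindle, and the spindle checkpoint keeps the APC/C silent until all are attached. In the neural plate stage embryo cells divide more slowly and less evenly than in the cleaving egg, and the maternal store of cell cycle messages has largely been replaced by the embryo's own.

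Many mitotic genes were higher in the eye field than in the whole embryo. Of the 139 members 40, of 33 genes, were called higher in EF (28.8%) and 3 lower (2.16%), against 8.83% and 10.6% of all probe sets tested. The median difference of the members was 0.35, where that of all probe sets was 0.10, and over the 9 pairings of an EF with a whole embryo array it ranged from 0.22 to 0.42. In 117 of the 139 the mean was above that of whole embryos, as it was in 9744 of all 15491. On 65 members every EF array lay above every whole embryo array (46.8%), where 23.8% of all probe sets did. The differences were mostly modest. Of the members called, 5 higher and 2 lower ones reached 2-fold (3.6% and 1.44%), where 2.43% and 6.63% of all probe sets did. The higher share was thus close to that of all. The 109 members above background on every array held 38 of the 40, a count not made over all probe sets. In a fit of the 13259 probe sets above background on 3 or more arrays, 38 members were higher, where 9.92% of those probe sets were. In that fit 49 members were higher in EF than PNP and 46 than LE, where 16.2% and 16.6% of those probe sets were. In such bulk samples a smaller share of cells of a type and less RNA per cell cannot be told apart. Markers of other cell types differed between EF and whole embryos as well. They were lower in EF on 10 of 10 probe sets of muscle and somite genes (median log2 difference -3.20), 7 of 9 of epidermis (-2.09), 9 of 12 of endoderm (-1.68) and 8 of 8 of posterior genes (-1.47). Of 12 probe sets of nerve cell genes 2 were higher, 0 were lower and 10 did not pass (0.18). The part of these cell types in the result was not tested. The count of 40 fell without single arrays, and so did the share of all probe sets called. It was 24 (17.3%) without whole embryo 2, 25 (18%) without EF 1 and 26 (18.7%) without EF 3. Of all probe sets 6.33%, 5.96% and 6.77% were then called higher.

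Neither of the other regions had such an excess. In PNP 10 members were higher than whole embryos and 15 lower (7.19% and 10.8%), close to the 10.2% and 12.1% of all probe sets, and the median was 0.04 against 0.07. That split depended on the scaling. Centring every array on its median moved the median of all probe sets to 0.22 and gave 22 higher and 13 lower members, where 21.8% and 9.92% of all probe sets were called, and quantile scaling gave 15 and 12, where 1935 and 1625 of the 15491 probe sets were. In LE 2 members were higher and 4 lower (1.44% and 2.88%), against 3.23% and 5.4% of all probe sets, and median centring gave 2 and 2, against 6.67% and 4.34%. The higher ones were *cdc20.S* and *mad2l2.S*, and the lower ones *wee1.S*, *ccnd1.S*, *ncapd3.L* and a probe set of *cdc23.L*. At 2-fold 2 members were higher and 7 lower in PNP, with 3.36% and 6.78% of all probe sets, and 0 and 2 in LE, with 1.08% and 2.92%. Set directly against the other regions, EF was higher for 49 members and lower for 5 against PNP, where 13.8% and 9.73% of all probe sets were called. At 2-fold these were 24 and 2, against 6.22% and 4.8% of all. It was higher for 45 and lower for 4 against LE, where the shares of all were 14.1% and 10.7%, and at 2-fold 13 and 1, against 5.54% and 6.3%. On 62 members every EF array lay above every PNP array and on 70 above every LE array (44.6% and 50.4%), where 20.4% and 23.2% of all probe sets did. Between PNP and LE 20 members were higher in PNP and 16 lower, with 13% and 12.6% of all probe sets called, and at 2-fold 7 and 7, with 5.98% and 6.71%. EF had the highest group mean for 81 members (58.3%), where it did for 30.2% of all probe sets. PNP and LE had the lowest mean for 46 each (33.1%), where they did for 25% and 25.8% of all, and whole embryos for 39 (28.1%), where they did for 31.5%.

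**Figure D1:**
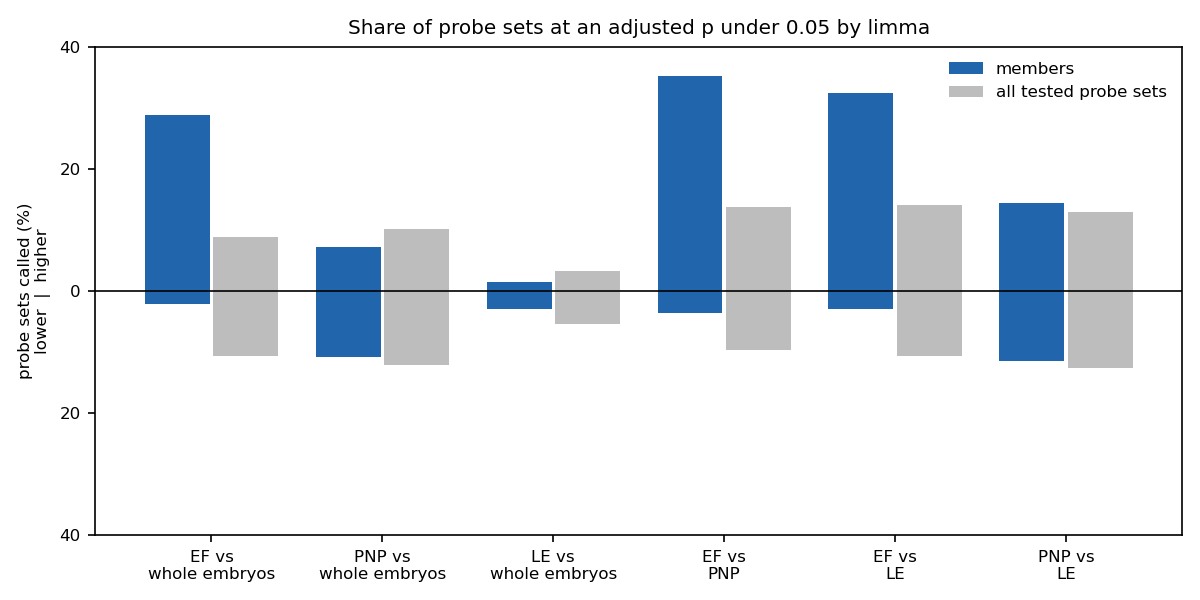
Share of the 139 members and of all 15491 probe sets called at an adjusted p under 0.05 in each of 6 comparisons, in percent, with higher calls above the zero line and lower calls below it. EF stands out in the upward direction, with 28.8%, 35.3% and 32.4% of members higher than whole embryos, PNP and LE.

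Cyclins were represented by 21 probe sets of 10 genes, of which 7 were higher in EF than whole embryos and 1 was lower (33.3% and 4.76%). The role counts that follow stand beside the 8.83% higher and 10.6% lower of all probe sets in EF, and the 10.2% and 12.1% in PNP. *Ccnd1* is the D cyclin that answers growth signals in G1. *Ccnd1.L* read 9.17, 8.92 and 8.98 in EF, 8.73, 8.61 and 8.49 in PNP, 8.09, 8.05 and 8.20 in LE and 8.53, 8.52 and 8.30 in whole embryos. EF lay above and LE below every other array, and PNP overlapped whole embryos. It was 1.49-fold higher in EF than whole embryos (log2 difference 0.57 ± 0.13, adjusted p = 0.00651) and 1.88-fold higher than LE (log2 difference 0.91 ± 0.13, adjusted p = 0.000171). *Ccnd1.S* read 6.89, 6.64 and 7.23 in EF, 5.74, 5.53 and 5.97 in PNP, 5.36, 5.39 and 4.45 in LE and 6.07, 6.56 and 5.78 in whole embryos. Its EF arrays were again the highest and its LE arrays the lowest of the 12. The copy was 2.1-fold lower in LE than whole embryos (log2 difference -1.07 ± 0.27, adjusted p = 0.03), a call lost without LE 3, whole embryo 1 or whole embryo 2, and 3.6-fold higher in EF than LE (log2 difference 1.85 ± 0.27, adjusted p = 0.000274). *Ccnd2* was dim and passed in no comparison.

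E cyclins partner Cdk2 at the start of DNA synthesis. *Ccne1.L* was read by 3 probe sets that did not rank the tissues alike. The first read 3.94, 4.40 and 4.70 in EF, 3.75, 3.65 and 3.50 in PNP, 3.43, 2.99 and 2.99 in LE and 3.49, 3.02 and 3.59 in whole embryos. EF exceeded all other arrays, by 1.97-fold over whole embryos (log2 difference 0.98 ± 0.21, adjusted p = 0.00608). The second read 4.12, 4.65 and 4.22 in EF, 3.70, 3.67 and 3.61 in PNP, 3.56, 3.19 and 2.90 in LE and 3.79, 3.17 and 4.18 in whole embryos, where EF overlapped whole embryos but was 2.17-fold higher than LE (log2 difference 1.12 ± 0.24, adjusted p = 0.00483). The third and brightest put PNP on top, at 6.21, 6.27 and 6.23 against 5.96, 5.24 and 5.44 in whole embryos (log2 difference 0.69 ± 0.17, adjusted p = 0.0111). *Ccne1.S* was 1.41-fold higher in EF than whole embryos (log2 difference 0.49 ± 0.16, adjusted p = 0.0443), a call lost on leaving out any of 11 arrays, and *ccne2.L* was 1.55-fold higher in PNP (log2 difference 0.63 ± 0.14, adjusted p = 0.00649).

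Among the B cyclins, which carry Cdk1 into mitosis, *ccnb3* was called on each of its probe sets. *Ccnb3.S* read 6.98, 6.78 and 6.97 in EF, 6.23, 5.68 and 5.81 in PNP, 6.32, 6.44 and 6.93 in LE and 6.10, 5.99 and 6.32 in whole embryos. EF lay above every PNP and whole embryo array and overlapped LE, and its excess over whole embryos was 1.71-fold (log2 difference 0.77 ± 0.19, adjusted p = 0.0118). Both probe sets of *ccnb3.L* were higher in EF than whole embryos, by 0.79 (adjusted p = 0.0397) and 0.74 (adjusted p = 0.0229), and neither call held on leaving out each array in turn. *Ccnb1.2.L* was higher in EF than whole embryos by 0.43 (adjusted p = 0.0211, lost without EF 3, whole embryo 1 or whole embryo 2), than PNP by 0.70 and than LE by 0.69, while *ccnb1.2.S* passed nowhere, with a difference of 0.04 from whole embryos. *Ccnb2.S* was higher than LE both in EF (0.73) and in PNP (0.97), and *ccnb2.L* passed in no comparison. The probe set of *ccnb1.S* lay above background on 3 arrays.

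Of the A cyclins 1 probe set was called against whole embryos. *Ccna1*, the A cyclin of the egg and early embryo in *Xenopus*, was the lone cyclin lower in EF than whole embryos. *Ccna1.S* read 2.48, 2.41 and 2.12 in EF, 2.67, 2.97 and 2.67 in PNP, 3.05, 3.25 and 3.45 in LE and 3.52, 4.01 and 2.80 in whole embryos, and 1 of the 3 EF arrays was above background. The EF signals lie at the floor, so their rank is not read. The fitted difference from whole embryos passed (log2 difference -1.10 ± 0.25, adjusted p = 0.00807), and with signals under background set to that ceiling EF was at least 1.91-fold lower. Other folds given as a lower bound were taken in this way, while the log2 differences beside them are as fitted. Against LE the call (log2 difference -0.91 ± 0.25, adjusted p = 0.0176) was lost without EF 3, LE 2 or LE 3. *Ccna1.L* differed by -1.31 from whole embryos and did not pass (adjusted p = 0.0825), its whole embryo arrays reading 5.02, 6.36 and 3.99. *Ccna2*, which takes over in later embryos and adult cells, passed in no comparison, with differences from whole embryos between -0.07 and 0.33.

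Of the 9 probe sets for Cdks and their inhibitors, 2 were higher in EF than whole embryos (22.2%), and 1 was higher and 3 lower in PNP (11.1% and 33.3%). *Cdk1* is the kinase of mitosis itself, and neither of its copies was called between EF and LE. *Cdk1.L* read 7.33, 7.46 and 7.66 in EF, 5.88, 5.56 and 6.13 in PNP, 7.15, 6.98 and 6.79 in LE and 7.01, 6.60 and 6.61 in whole embryos. EF was above and PNP below every other array. It was 1.67-fold higher in EF (log2 difference 0.74 ± 0.18, adjusted p = 0.0109) and 1.84-fold lower in PNP than whole embryos (log2 difference -0.88 ± 0.18, adjusted p = 0.00343), and between EF and PNP it differed 3.09-fold (log2 difference 1.63 ± 0.18, adjusted p = 2.83e-05). This probe set may detect several transcripts, as the ending of its name shows. *Cdk1.S* read 6.90, 7.50 and 7.38 in EF, 6.36, 5.92 and 6.29 in PNP, 6.91, 6.84 and 6.97 in LE and 6.48, 6.72 and 7.27 in whole embryos, and PNP was again the lowest on every array while the other groups overlapped. Its difference between EF and PNP passed (log2 difference 1.07 ± 0.21, adjusted p = 0.00288), and that from whole embryos did not for PNP (-0.63, adjusted p = 0.0512).

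*Cdk2.S*, the kinase of S phase entry, read 4.56, 4.67 and 4.82 in EF, 3.46, 3.49 and 3.81 in PNP, 3.91, 3.83 and 3.77 in LE and 3.77, 3.83 and 4.07 in whole embryos. EF lay above all others, 1.74-fold above whole embryos (log2 difference 0.80 ± 0.14, adjusted p = 0.00139). *Cdk4.S*, the partner of cyclin D, read 9.0, 8.62 and 9.17 in EF, 9.99, 9.44 and 9.15 in PNP, 8.97, 8.81 and 8.37 in LE and 8.91, 8.46 and 8.62 in whole embryos. PNP overlapped EF and lay above LE and whole embryos, by 1.82-fold over the latter (log2 difference 0.86 ± 0.23, adjusted p = 0.0195), a call lost without PNP 1, whole embryo 2 or whole embryo 3. *Cdk5.L*, which acts in nerve cells more than the cycle, read 4.28, 4.11 and 3.95 in EF, 2.70, 2.33 and 2.97 in PNP, 4.28, 3.35 and 3.56 in LE and 3.88, 3.72 and 3.43 in whole embryos. It was lowest on the PNP arrays, of which 2 were above background, and at least 1.94-fold lower there than whole embryos (log2 difference -1.01 ± 0.24, adjusted p = 0.00923). *Cdk7.L*, which activates other Cdks and serves transcription, read 5.56, 5.51 and 5.84 in EF, 4.81, 4.68 and 5.40 in PNP, 6.32, 6.46 and 6.77 in LE and 6.52, 5.91 and 5.70 in whole embryos. It was lowest in PNP on every array, 2.12-fold below whole embryos (log2 difference -1.08 ± 0.23, adjusted p = 0.00554) and 2.93-fold below LE (log2 difference -1.55 ± 0.23, adjusted p = 0.000307). A second *cdk7.L* probe set was above background on 3 arrays and is no check. The *cdkn* symbols among the members were both copies of *cdkn2aip*, with no call. No Cdk inhibitor of the Cip, Kip or Ink families was thus among the members. The 5992 tested probe sets without a symbol could not be matched.

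The regulators that set Cdk1's timing, 9 probe sets of 5 genes, had 2 higher and 1 lower call in EF against whole embryos (22.2% and 11.1%) and 3 higher and 0 lower in PNP (33.3% higher). *Wee1*, the kinase that holds Cdk1 inactive, was highest in PNP. *Wee1.S* read 6.97, 6.51 and 6.35 in EF, 8.30, 8.30 and 7.78 in PNP, 6.07, 5.95 and 5.95 in LE and 7.10, 7.13 and 7.35 in whole embryos. None of the 4 groups overlapped, in the order PNP, whole embryos, EF and LE. It was 1.91-fold higher in PNP than whole embryos (log2 difference 0.93 ± 0.18, adjusted p = 0.00296), 2.3-fold lower in LE (log2 difference -1.20 ± 0.18, adjusted p = 0.00162) and 2.86-fold lower in EF than PNP (log2 difference -1.52 ± 0.18, adjusted p = 6.79e-05). The smaller deficit of EF against whole embryos (log2 difference -0.58 ± 0.18, adjusted p = 0.0428) was lost on leaving out any of 8 arrays and under median centring. *Wee1.L* read 7.44, 7.24 and 7.21 in EF, 8.49, 8.27 and 7.99 in PNP, 7.13, 7.11 and 6.65 in LE and 7.87, 7.22 and 7.76 in whole embryos, with every PNP array above every other array. Its excess over whole embryos (log2 difference 0.63 ± 0.20, adjusted p = 0.0384) was lost without PNP 1 or 2 or whole embryo 2 or 3, and that over LE was 2.44-fold (log2 difference 1.28 ± 0.20, adjusted p = 0.000375). Markers of muscle and somite had summed signals of 1923 to 2107 in PNP, 96.4 to 162 in EF, 95.8 to 131 in LE and 1011 to 1508 in whole embryos. Markers of notochord and of posterior genes were highest in PNP as well. The part of these cell types in the result was not tested.

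In EF a Cdc25 phosphatase and Myt1 were higher. The bright probe set of *cdc25a.L*, which removes the inhibitory phosphates, was 1.69-fold higher than whole embryos (log2 difference 0.76 ± 0.18, adjusted p = 0.0114), a call lost without EF 1. *Pkmyt1.S*, the membrane-bound counterpart of Wee1, was 1.74-fold higher (log2 difference 0.80 ± 0.20, adjusted p = 0.0135), lost without EF 3 or whole embryo 2. A dim second *cdc25a.L* probe set, above background on 1 of 3 PNP and 2 of 3 whole embryo arrays, was higher in PNP than whole embryos by 0.37 (adjusted p = 0.0418, lost on leaving out any of 9 arrays). *Cdc25c.L* passed between EF and PNP alone (0.56, adjusted p = 0.0446, lost on leaving out any of 10 arrays). *Wee2*, the Wee kinase of eggs, was near background.

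The APC/C marks cyclin B and securin for destruction and so ends mitosis. Its 22 probe sets, with activators, inhibitors and separase, had 5 higher and 0 lower calls in EF against whole embryos (22.7% higher), and each of these 5 calls was lost on leaving out some single array. The activator *cdc20.L* was 1.54-fold higher in EF than whole embryos (log2 difference 0.62 ± 0.17, adjusted p = 0.0226, lost without EF 1 or whole embryo 2), and *cdc20.S* was higher both there (log2 difference 0.41 ± 0.13, adjusted p = 0.0491, lost without any of 11 arrays) and in LE (log2 difference 0.61 ± 0.13, adjusted p = 0.0151, lost without LE 3). Core subunits were counted apart outside the planned role group. Of their 12 probe sets 2 were higher in EF than whole embryos, *anapc11.L* by 0.62 and *cdc16.L* by 0.55. Against LE 7 were higher in EF (58.3%), where 14.1% of all probe sets were. All 3 probe sets of *cdc23* were among the 7, which thus stood for fewer genes. Those of *cdc23.L* were higher by 0.66, lost without EF 3, LE 1 or LE 3, and by 0.58. On the latter 1 LE array was above background. These 7 included *anapc13.2.L* (0.80, on 1 of its probe sets, which was also higher than PNP by 0.77). Among them too were *anapc7.S* (0.73, lost on leaving out any of 8 arrays and with the replicate number as a block) and *cdc23.S* (0.67, lost on leaving out any of 7 and with the block). *Espl1.L*, the separase that cuts cohesin, was higher in EF than whole embryos by 0.38 (adjusted p = 0.0491). That call was lost on leaving out any of 10 arrays, with the replicate block and under quantile scaling. Over PNP, where 1 array was above background, EF was at least 1.28-fold higher (log2 difference 0.58, adjusted p = 0.00431). *Espl1.S* passed between PNP and LE alone (-0.56, adjusted p = 0.0475), a call lost on leaving out any of 9 arrays, with the replicate block and under median centring. *Fbxo5.S*, the APC/C inhibitor Emi1, passed between EF and PNP alone (log2 difference 0.93 ± 0.22, adjusted p = 0.00933), as did *ube2c.L*, the complex's ubiquitin-conjugating enzyme (log2 difference 0.55 ± 0.18, adjusted p = 0.0392, lost on leaving out any of 6 arrays).

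A pair of subunits were higher in PNP. *Anapc15.S*, which helps to free the APC/C from the checkpoint, read 4.48, 4.48 and 4.66 in EF, 4.94, 5.43 and 4.60 in PNP, 3.60, 3.40 and 3.70 in LE and 4.14, 3.95 and 4.41 in whole embryos. PNP overlapped EF, and LE lay below every other array. It was 1.76-fold higher in PNP than whole embryos (log2 difference 0.82 ± 0.20, adjusted p = 0.01) and 2.68-fold higher than LE (log2 difference 1.42 ± 0.20, adjusted p = 0.000154). *Anapc16.L* was 1.75-fold higher in PNP than whole embryos (log2 difference 0.80 ± 0.17, adjusted p = 0.00554). Securin itself was not among the members, since the *pttg* symbols were those of *pttg1ip*, which had no call.

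The mitotic kinases and the chromosomal passenger complex were read by 25 probe sets, of which 3 were higher and 1 lower in EF than whole embryos (12% and 4%, against 8.83% and 10.6% of all probe sets), and 1 higher and 5 lower in PNP (4% and 20%, against 10.2% and 12.1%). *Aurka.S*, the kinase of the spindle poles, read 6.05, 6.07 and 6.30 in EF, 4.61, 3.92 and 4.62 in PNP, 5.07, 5.33 and 5.11 in LE and 5.03, 5.46 and 5.12 in whole embryos. EF lay above and PNP below every other array. It was 1.92-fold higher in EF (log2 difference 0.94 ± 0.19, adjusted p = 0.00477) and 1.76-fold lower in PNP than whole embryos (log2 difference -0.82 ± 0.19, adjusted p = 0.00945). *Aurka.L*, at 4.77, 4.80 and 5.32 in EF and 5.31, 4.64 and 5.08 in whole embryos, passed in no comparison. *Aurkb*, the kinase of the passenger complex at centromeres and midzone, was higher in EF on both copies. *Aurkb.S* read 7.93, 7.61 and 8.57 in EF, 7.02, 6.70 and 7.22 in PNP, 7.17, 6.68 and 6.69 in LE and 7.02, 7.13 and 7.31 in whole embryos, with EF above all other arrays and 1.84-fold above whole embryos (log2 difference 0.88 ± 0.23, adjusted p = 0.0192, lost without EF 3 or whole embryo 1). *Aurkb.L* was 1.54-fold higher (log2 difference 0.62 ± 0.13, adjusted p = 0.00436). Its partners *incenp* and *birc5* (survivin) passed in no comparison, and *birc5l* passed between EF and PNP on its L copy (0.38, lost on leaving out any of 8 arrays) and between EF and LE on its S copy (0.77, lost on leaving out any of 4 arrays).

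Among the polo kinases a probe set each of *plk4.L* and *plk1.S* was lower in PNP than whole embryos. *Plk4.L*, which starts the copying of centrioles, read 4.64, 4.62 and 3.75 in EF, 3.28, 2.99 and 3.63 in PNP, 5.01, 5.33 and 4.48 in LE and 4.49, 4.38 and 4.12 in whole embryos. PNP was below every other array, 2.05-fold below whole embryos (log2 difference -1.03 ± 0.27, adjusted p = 0.016, lost without PNP 2 or whole embryo 1) and 3.12-fold below LE (log2 difference -1.64 ± 0.27, adjusted p = 0.00062). *Plk1.S*, with roles from mitotic entry to cytokinesis, had 1 probe set that read 5.91, 6.24 and 6.51 in EF, 5.49, 5.0 and 5.0 in PNP, 5.53, 5.56 and 5.50 in LE and 5.64, 5.89 and 5.74 in whole embryos. There EF was highest and PNP lowest on every array, with a 2.08-fold difference between them (log2 difference 1.06 ± 0.17, adjusted p = 0.000723). Its deficit in PNP against whole embryos (log2 difference -0.60 ± 0.17, adjusted p = 0.0269) was lost without PNP 2, PNP 3, whole embryo 2 or whole embryo 3 and under median centring and quantile scaling. The brighter *plk1.S* probe sets had no call and differed by 0.24 and 0.13 between PNP and whole embryos, in the opposite direction. The member probe sets of *plk2* and *plk3* were near background. A *plk2* probe set left out of the members, since it carries the symbols of both copies, was above background on 11 arrays. It was lower than whole embryos in EF (-0.87, adjusted p = 0.0263), PNP (-1.14, adjusted p = 0.00554) and LE (-0.98, adjusted p = 0.029).

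The Nek kinases gave the largest differences of all members. *Nek6.S*, which acts in spindle assembly, read 2.38, 2.68 and 2.44 in EF, 5.80, 5.46 and 6.22 in PNP, 2.25, 2.74 and 1.99 in LE and 3.15, 2.60 and 2.67 in whole embryos. Every PNP array stood far above the rest, and 2 EF and 1 LE arrays were above background. It was 8.12-fold higher in PNP than whole embryos (log2 difference 3.02 ± 0.23, adjusted p = 1.28e-06). Notochord markers had summed signals of 2031 to 2556 in PNP, 466 to 525 in EF, 52.5 to 59.9 in LE and 384 to 504 in whole embryos. Markers of muscle and somite and of posterior genes were highest in PNP as well. The part of these cell types in the result was not tested. *Nek8.S*, a kinase of cilia, read 3.81, 3.94 and 4.28 in EF, 3.17, 3.29 and 2.20 in PNP, 6.82, 7.10 and 6.82 in LE and 7.07, 6.85 and 6.65 in whole embryos. LE and whole embryos overlapped far above EF, and EF lay above PNP, where 2 arrays were above background. It was 7.19-fold lower in EF (log2 difference -2.85 ± 0.25, adjusted p = 8.69e-06) and at least 13.7-fold lower in PNP than whole embryos (log2 difference -3.97 ± 0.25, adjusted p = 2.14e-07). The summed signals of epidermal markers had the same order, at 6339 to 7539 in LE, 6590 to 7436 in whole embryos, 1274 to 1344 in EF and 55.7 to 66.0 in PNP. Those of multiciliated cell markers did not, with EF below PNP. They were 64.88 to 80.94 in LE, 36.35 to 78.15 in whole embryos, 25.05 to 26.17 in EF and 32.57 to 36.4 in PNP. The part of these cell types in the result was not tested. A second *nek8.S* probe set exceeded background on 1 array and had no call. *Nek4.S* read 3.84, 4.12 and 4.11 in EF, 4.87, 3.83 and 3.93 in PNP, 3.39, 3.01 and 3.10 in LE and 3.82, 3.95 and 3.83 in whole embryos, with LE below every other array and 2.06-fold below PNP (log2 difference 1.04 ± 0.23, adjusted p = 0.00506). *Nek2.S*, which parts the centrosomes, was 1.68-fold lower in PNP than whole embryos on its brighter probe set (log2 difference -0.75 ± 0.12, adjusted p = 0.000928), and its other probe set had no call.

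**Figure D2:**
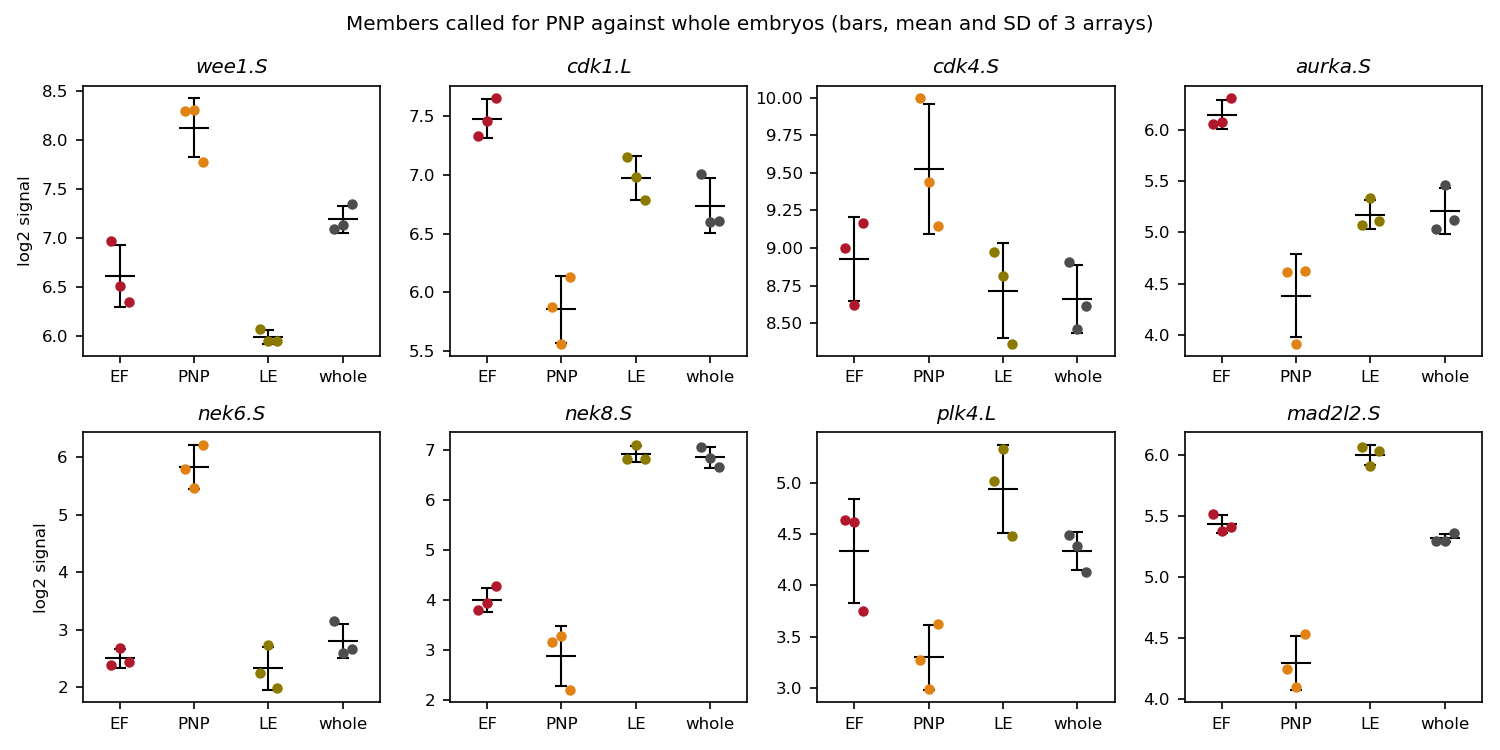
Log2 signal on each array (points) with group mean and SD (bars, n = 3) for 8 members called in PNP against whole embryos (whole). *Nek6.S* at 5.46 to 6.22 and *wee1.S* at 7.78 to 8.30 are highest in PNP, whereas *nek8.S*, *plk4.L*, *aurka.S*, *cdk1.L* and *mad2l2.S* are lowest there.

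Checkpoint and kinetochore genes, 16 probe sets of 15 genes, had means above those of whole embryos in EF for 16 of 16. Of all 15491 probe sets 9744 did. Of the 16 probe sets 4 were called higher (25%). *Bub1b.L* encodes BubR1, the checkpoint protein that blocks Cdc20, and read 6.43, 6.88 and 6.42 in EF, 5.39, 4.85 and 4.62 in PNP, 5.04, 4.85 and 5.21 in LE and 4.91, 5.85 and 5.71 in whole embryos. EF lay above every other array. It was 2.13-fold higher than whole embryos (log2 difference 1.09 ± 0.26, adjusted p = 0.0106), 3.08-fold higher than PNP (log2 difference 1.62 ± 0.26, adjusted p = 0.000566) and 2.92-fold higher than LE (log2 difference 1.54 ± 0.26, adjusted p = 0.00075). Its partner *bub3.L* was higher in EF than whole embryos by 0.54 (adjusted p = 0.0166, lost without EF 2 or whole embryo 2) and than LE by 0.88. *Cenpl.S*, of the inner kinetochore, was 1.95-fold higher in EF (log2 difference 0.96 ± 0.18, adjusted p = 0.00245). *Ndc80.S*, the microtubule-binding core of the outer kinetochore, was 1.64-fold higher (log2 difference 0.71 ± 0.20, adjusted p = 0.0246, lost without EF 1, EF 3 or whole embryo 2), and its partner *nuf2.L* was higher than LE in EF (0.78) and PNP (0.79). *Cenpv.L*, named for its place at centromeres, was higher in EF than PNP (0.66, lost without EF 2 or PNP 2) and LE (0.84). The checkpoint kinases *bub1.L* and *ttk.S* and the Ndc80 complex member *spc24.L*, picked here after their values were seen, had no call, with differences between EF and whole embryos of 0.40, 0.44 and 0.51.

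In this group PNP had 1 higher and 1 lower member. *Cenpp.L*, another inner kinetochore protein, read 5.13, 5.91 and 5.79 in EF, 6.80, 6.31 and 6.23 in PNP, 5.28, 5.13 and 4.17 in LE and 5.10, 5.11 and 5.45 in whole embryos. PNP lay above every other array and 2.34-fold above whole embryos (log2 difference 1.23 ± 0.29, adjusted p = 0.00924). *Mad2l2.S*, a relative of the checkpoint protein Mad2 that serves DNA repair, read 5.52, 5.38 and 5.41 in EF, 4.25, 4.10 and 4.53 in PNP, 6.07, 5.91 and 6.03 in LE and 5.30, 5.30 and 5.36 in whole embryos. The groups did not overlap, in the order LE, EF, whole embryos and PNP, though the step from whole embryos to EF did not pass (0.12, adjusted p = 0.554). It was 2.04-fold lower in PNP (log2 difference -1.03 ± 0.13, adjusted p = 9.5e-05) and 1.61-fold higher in LE (log2 difference 0.69 ± 0.13, adjusted p = 0.00619). *Mad2l1.S*, the checkpoint's Mad2, passed between EF and PNP alone, on the brighter of its probe sets, all of which exceeded background on every array (0.74, lost without EF 1 or PNP 2).

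The condensins, which fold chromosomes into compact rods, were higher in EF on nearly every probe set. Condensin I (*ncapd2*, *ncapg*, *ncaph*) and condensin II (*ncapd3*, *ncapg2*, *ncaph2*) share the ring-forming ATPases *smc2* and *smc4*, and all 8 genes were read. The planned role group was cohesin and condensin together, 17 probe sets, with *smc5* and *smc6* of DNA repair counted in. In EF 10 of them were higher than whole embryos and 0 lower (58.8% higher), with a median difference of 0.52. Condensins were counted apart outside that plan. Of the 10 condensin probe sets 9, of 8 genes, were higher in EF than whole embryos, with a median difference of 0.81, and 7 of these calls held without any single array. Against PNP 9 were higher, with a median of 1.01, where 13.8% of all probe sets were. Against LE 8 were, with a median of 0.87, where 14.1% of all were. *Ncaph.S*, the kleisin that closes the condensin I ring, read 6.63, 6.63 and 6.54 in EF, 4.99, 4.64 and 4.75 in PNP, 5.37, 5.08 and 4.87 in LE and 5.67, 5.37 and 5.46 in whole embryos. EF lay above every other array, and PNP overlapped LE and lay below every whole embryo array. It was 2.15-fold higher in EF (log2 difference 1.10 ± 0.15, adjusted p = 0.000274) and 1.63-fold lower in PNP than whole embryos (log2 difference -0.71 ± 0.15, adjusted p = 0.0054). *Ncapd2.S* read 7.49, 7.79 and 8.37 in EF, 6.74, 6.67 and 6.78 in PNP, 7.0, 7.17 and 7.21 in LE and 7.23, 6.87 and 7.10 in whole embryos, with EF highest and PNP lowest on every array and EF 1.76-fold above whole embryos (log2 difference 0.81 ± 0.19, adjusted p = 0.0104). *Ncapg.L*, bright in all groups, read 8.48, 8.57 and 8.94 in EF, 8.38, 7.88 and 7.79 in PNP, 7.67, 7.63 and 7.58 in LE and 8.32, 7.80 and 8.12 in whole embryos. EF was highest and LE lowest on every array, and the excess over whole embryos (log2 difference 0.58 ± 0.19, adjusted p = 0.0461) was lost on leaving out any of 9 arrays, while that over LE was 2.05-fold (log2 difference 1.04 ± 0.19, adjusted p = 0.00133).

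The condensin II subunits were higher in EF as well. *Ncapd3.L* read 6.40, 6.12 and 6.47 in EF, 5.31, 5.05 and 5.01 in PNP, 5.05, 4.57 and 4.56 in LE and 5.25, 5.42 and 5.29 in whole embryos. EF lay above every other array, 2.01-fold above whole embryos (log2 difference 1.01 ± 0.16, adjusted p = 0.000773) and 3.03-fold above LE (log2 difference 1.60 ± 0.16, adjusted p = 1.35e-05), and the LE deficit against whole embryos (log2 difference -0.59 ± 0.16, adjusted p = 0.0412) was lost on leaving out any of 7 arrays and under median centring. *Ncapg2.L* read 4.92, 5.29 and 5.45 in EF, 4.33, 4.06 and 4.07 in PNP, 4.46, 3.82 and 4.82 in LE and 4.14, 4.32 and 4.16 in whole embryos, again with EF on top, 2.02-fold above whole embryos (log2 difference 1.01 ± 0.22, adjusted p = 0.00692). *Ncaph2.L* read 3.81, 3.61 and 3.98 in EF, 2.90, 2.81 and 2.84 in PNP, 2.51, 2.58 and 2.68 in LE and 2.69, 2.68 and 2.71 in whole embryos on its brighter probe set, where EF was 2.15-fold above whole embryos (log2 difference 1.11 ± 0.12, adjusted p = 4.11e-05). The other *ncaph2.L* probe set, the 1 condensin probe set without a call, exceeded background on 5 arrays. Of the shared ATPases, *smc2.L* read 5.91, 6.12 and 6.27 in EF, 4.68, 4.52 and 5.29 in PNP, 5.51, 5.52 and 5.48 in LE and 5.46, 5.04 and 5.38 in whole embryos, with EF above every other array and 1.75-fold above whole embryos (log2 difference 0.81 ± 0.19, adjusted p = 0.0107). *Ncaph.L* was 1.42-fold higher in EF (log2 difference 0.50 ± 0.14, adjusted p = 0.0284, lost on leaving out any of 5 arrays). *Smc4.L* was 1.53-fold higher in EF (log2 difference 0.61 ± 0.15, adjusted p = 0.0108).

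**Figure D3:**
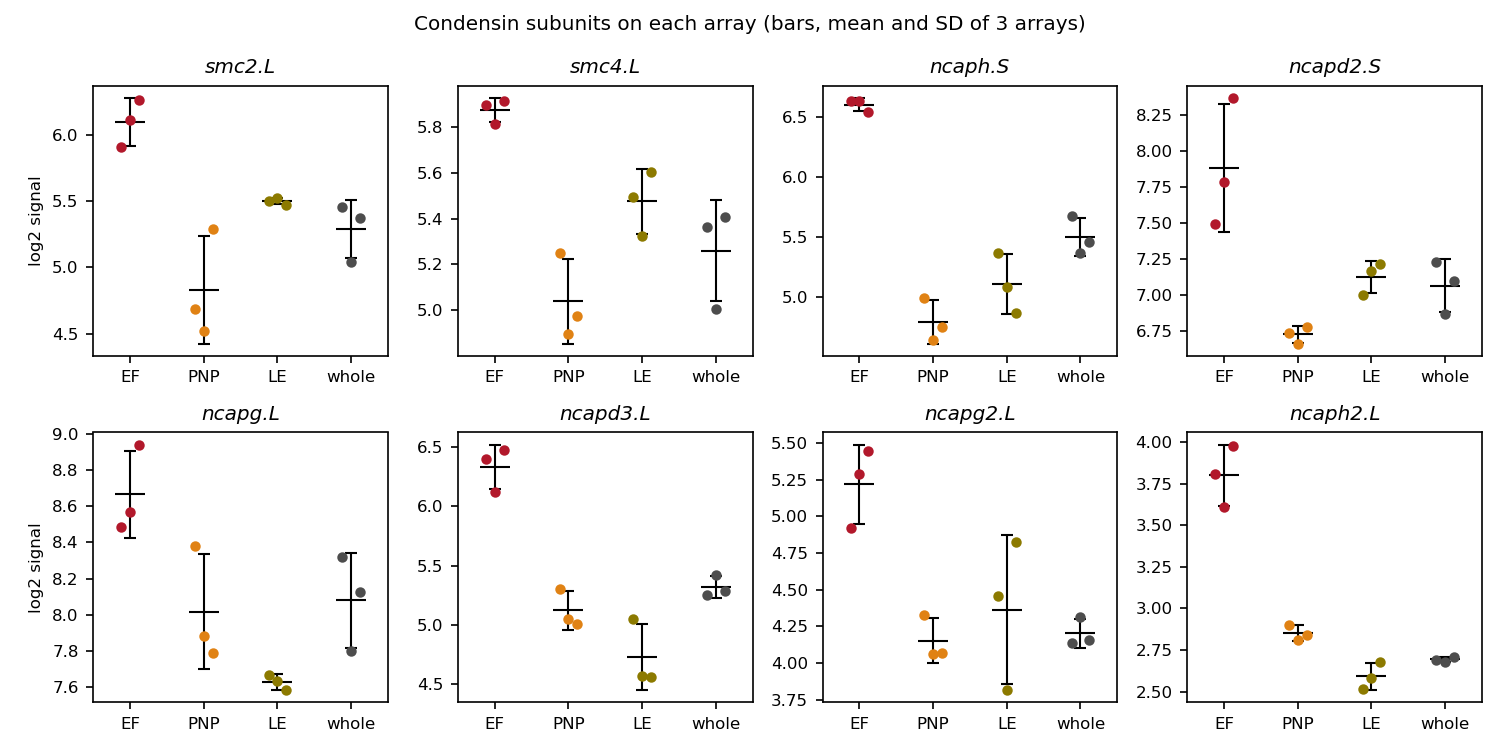
Log2 signal on each array (points) with group mean and SD (bars, n = 3) for 8 condensin probe sets, 1 for each subunit, with whole embryos as whole. In all 8 panels the 3 EF arrays lie above those of PNP, LE and whole embryos.

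The cohesins hold sister chromatids together until anaphase. Of the 4 probe sets of *smc1a.L* and *smc3.L*, 1 of *smc3.L* was higher in EF than whole embryos, by 0.52 (adjusted p = 0.0269, lost on leaving out any of 4 arrays). Against PNP 1 of *smc1a.L* was higher in EF (log2 difference 0.59 ± 0.14, adjusted p = 0.00717). Against LE the other of *smc1a.L* was higher (log2 difference 0.47 ± 0.12, adjusted p = 0.0136, lost without LE 3), as were both of *smc3.L*, by 0.72 and 0.48, each lost on leaving out any of 4 arrays. *Smc5.S* and *smc6.1.L* had no call. Across the cohesin and condensin group, with *smc5* and *smc6* counted in, EF had the highest mean for 16 of 17 probe sets. It did for 30.2% of all probe sets.

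Motors and scaffolds of the spindle and midbody, 20 probe sets of 12 genes, had 7 higher and 0 lower calls in EF against whole embryos (35% higher). In PNP they had 0 higher and 5 lower calls (25% lower). The 7 calls were of 6 genes and the 5 of 3, and 2 calls of each held without any single array. *Kif15.S*, a motor that keeps the spindle poles apart, read 8.18, 7.80 and 7.65 in EF, 6.69, 6.49 and 6.70 in PNP, 7.04, 7.17 and 7.20 in LE and 6.77, 6.96 and 7.09 in whole embryos. EF was above and PNP below every other array, and EF was 1.92-fold above whole embryos (log2 difference 0.94 ± 0.15, adjusted p = 0.000893). *Kif15.L* went otherwise, reading 2.82, 3.28 and 3.16 in EF, 2.50, 2.23 and 3.04 in PNP, 3.54, 3.67 and 3.89 in LE and 4.27, 3.24 and 3.68 in whole embryos. PNP, with 2 arrays above background, overlapped EF and was at least 2.08-fold below whole embryos (log2 difference -1.14 ± 0.26, adjusted p = 0.00754), and EF differed from whole embryos by -0.64, without passing (adjusted p = 0.108). *Kif11* encodes Eg5, the motor that pushes the poles apart. *Kif11.S* read 5.86, 5.83 and 6.48 in EF, 5.38, 4.46 and 4.88 in PNP, 5.49, 4.81 and 4.87 in LE and 5.04, 5.39 and 5.33 in whole embryos, with EF above all other arrays. Its excess over whole embryos (log2 difference 0.81 ± 0.26, adjusted p = 0.0474) was lost on leaving out any of 9 arrays, whereas that of *kif11.L* (log2 difference 0.95 ± 0.20, adjusted p = 0.00596) held without any single array.

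*Kif4a.S*, a chromosome motor that works with condensin, read 5.80, 6.22 and 6.17 in EF, 4.22, 3.91 and 4.71 in PNP, 4.69, 4.68 and 4.39 in LE and 4.67, 5.98 and 5.08 in whole embryos. EF overlapped whole embryos, of which replicate 2 was high, and lay far above PNP and LE. It was 3.44-fold higher in EF than PNP (log2 difference 1.78 ± 0.29, adjusted p = 0.000737) and 2.79-fold higher than LE (log2 difference 1.48 ± 0.29, adjusted p = 0.00254). The difference of EF from whole embryos was 0.82 (adjusted p = 0.0702). That of PNP passed (-0.96, adjusted p = 0.0337), a call lost on leaving out any of 4 arrays and under quantile scaling. *Kif2c.S*, the MCAK motor that takes apart microtubules at centromeres, was lower in PNP than whole embryos on all 3 of its probe sets. Both brighter ones may detect several transcripts, as the endings of their names show. The brightest read 8.03, 8.17 and 8.66 in EF, 7.21, 7.42 and 6.99 in PNP, 7.52, 7.43 and 7.51 in LE and 8.22, 7.97 and 7.65 in whole embryos, with PNP below every other array and EF overlapping whole embryos, and its deficit (log2 difference -0.74 ± 0.19, adjusted p = 0.0142) was lost without PNP 3 or whole embryo 1. The second read 7.11, 6.93 and 7.47 in EF, 6.02, 6.07 and 6.04 in PNP, 6.28, 5.85 and 6.01 in LE and 6.94, 6.43 and 6.50 in whole embryos, where PNP lay within the range of LE. Its deficit against whole embryos (log2 difference -0.58 ± 0.18, adjusted p = 0.0349) was lost without any 1 PNP array or whole embryo 1 and under median centring and quantile scaling, and PNP was 2.18-fold below EF (log2 difference 1.13 ± 0.18, adjusted p = 0.000549). The third read 4.55, 5.14 and 4.90 in EF, 3.89, 3.46 and 3.33 in PNP, 4.0, 4.41 and 4.28 in LE and 4.99, 4.99 and 4.32 in whole embryos, and PNP was again lowest, 2.31-fold below whole embryos (log2 difference -1.21 ± 0.22, adjusted p = 0.00198).

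*Kif20b.S*, a motor of cytokinesis, read 4.32, 4.10 and 4.94 in EF, 5.16, 4.73 and 3.94 in PNP, 3.02, 3.75 and 3.54 in LE and 4.78, 3.88 and 4.04 in whole embryos. LE lay below every other array, 2.26-fold below PNP (log2 difference 1.18 ± 0.34, adjusted p = 0.0217, lost without PNP 1, PNP 2 or LE 1). *Tpx2*, which activates Aurora A on the spindle, was higher in EF than whole embryos on 1 of its 3 probe sets, by 0.48 (adjusted p = 0.0413), and *kif22.S*, a motor on chromosome arms, by 0.43 (adjusted p = 0.0426), calls lost on leaving out any of 8 and 9 arrays. *Anln.L*, the anillin of the cleavage furrow, was higher by 0.60 on a dim probe set (lost on leaving out any of 8 arrays) and differed by -0.25, without passing, on a bright one. *Prc1.2.S*, which bundles the midzone, passed between EF and PNP alone (log2 difference 0.86 ± 0.21, adjusted p = 0.00998). *Kif20a.L*, a motor of the central spindle, passed between PNP and LE alone (0.49, lost on leaving out any of 6 arrays and with the replicate block). *Racgap1* and *kif23*, which together form centralspindlin, passed in no comparison.

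**Figure D4:**
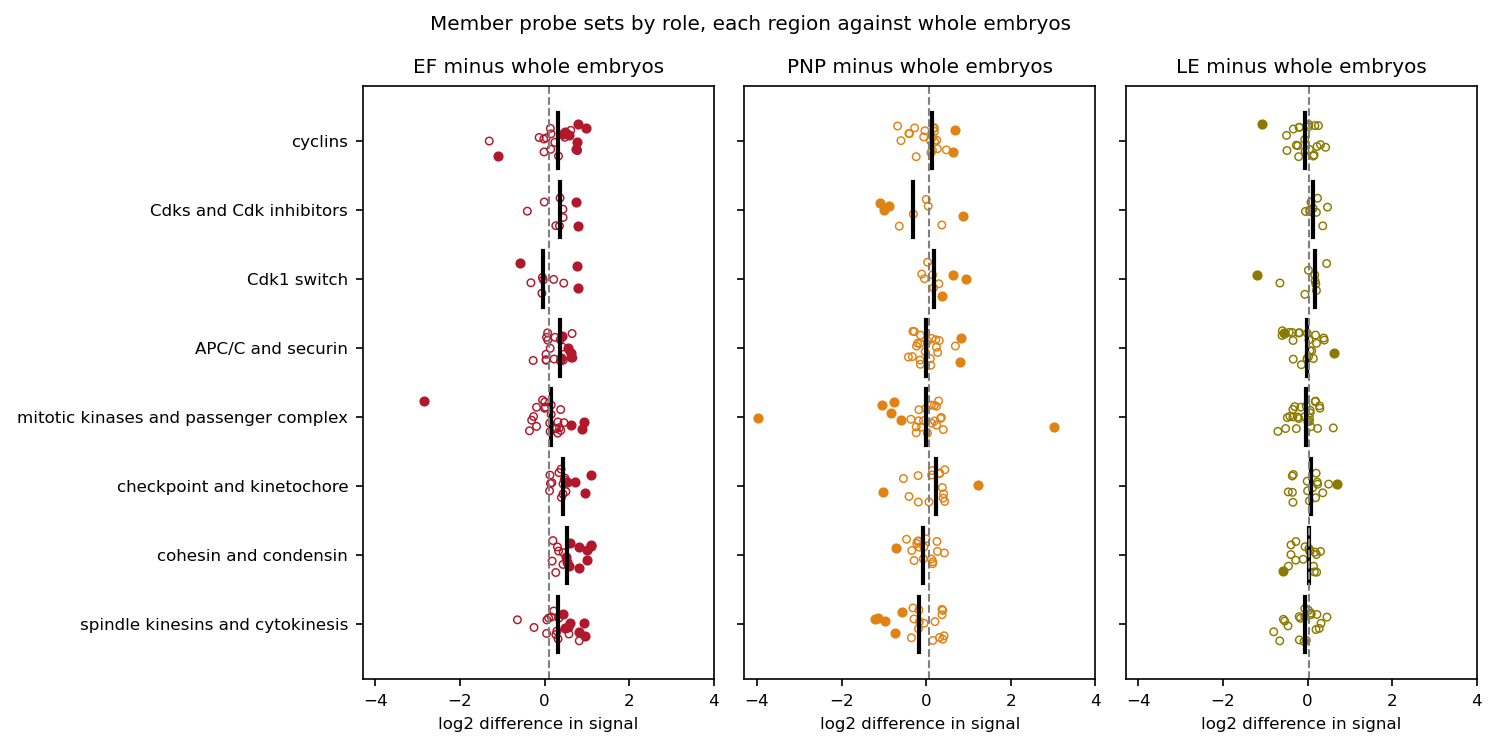
Log2 difference of each of the 139 members from whole embryos (points, filled where called), by role, in EF, PNP and LE, with the median of each role (bars) and of all probe sets (dashed line). In EF cohesin and condensin have the highest median, and in PNP the mitotic kinases reach from -3.97 to 3.02.

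Where a gene was read more than once, its probe sets mostly pointed one way in EF. Of the 41 such genes, all probe sets lay above whole embryos for 28 and below for 5, and the median range of the differences within a gene was 0.26. Of all 15491 probe sets 9744 lay above whole embryos in EF, so agreement upward is partly given beforehand. With 1 probe set for each of the 90 genes, that with the highest mean signal, 27 genes were higher in EF than whole embryos and 1 was lower. Their median difference was 0.39. Of all probe sets 8.83% were higher and 10.6% lower, with a median of 0.10. Neither count was made over all genes. The exceptions included *aurka* and *kif15*, whose S copies were higher in EF by 0.94 each while their L copies differed by -0.05 and -0.64 and did not pass.

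**Figure D5:**
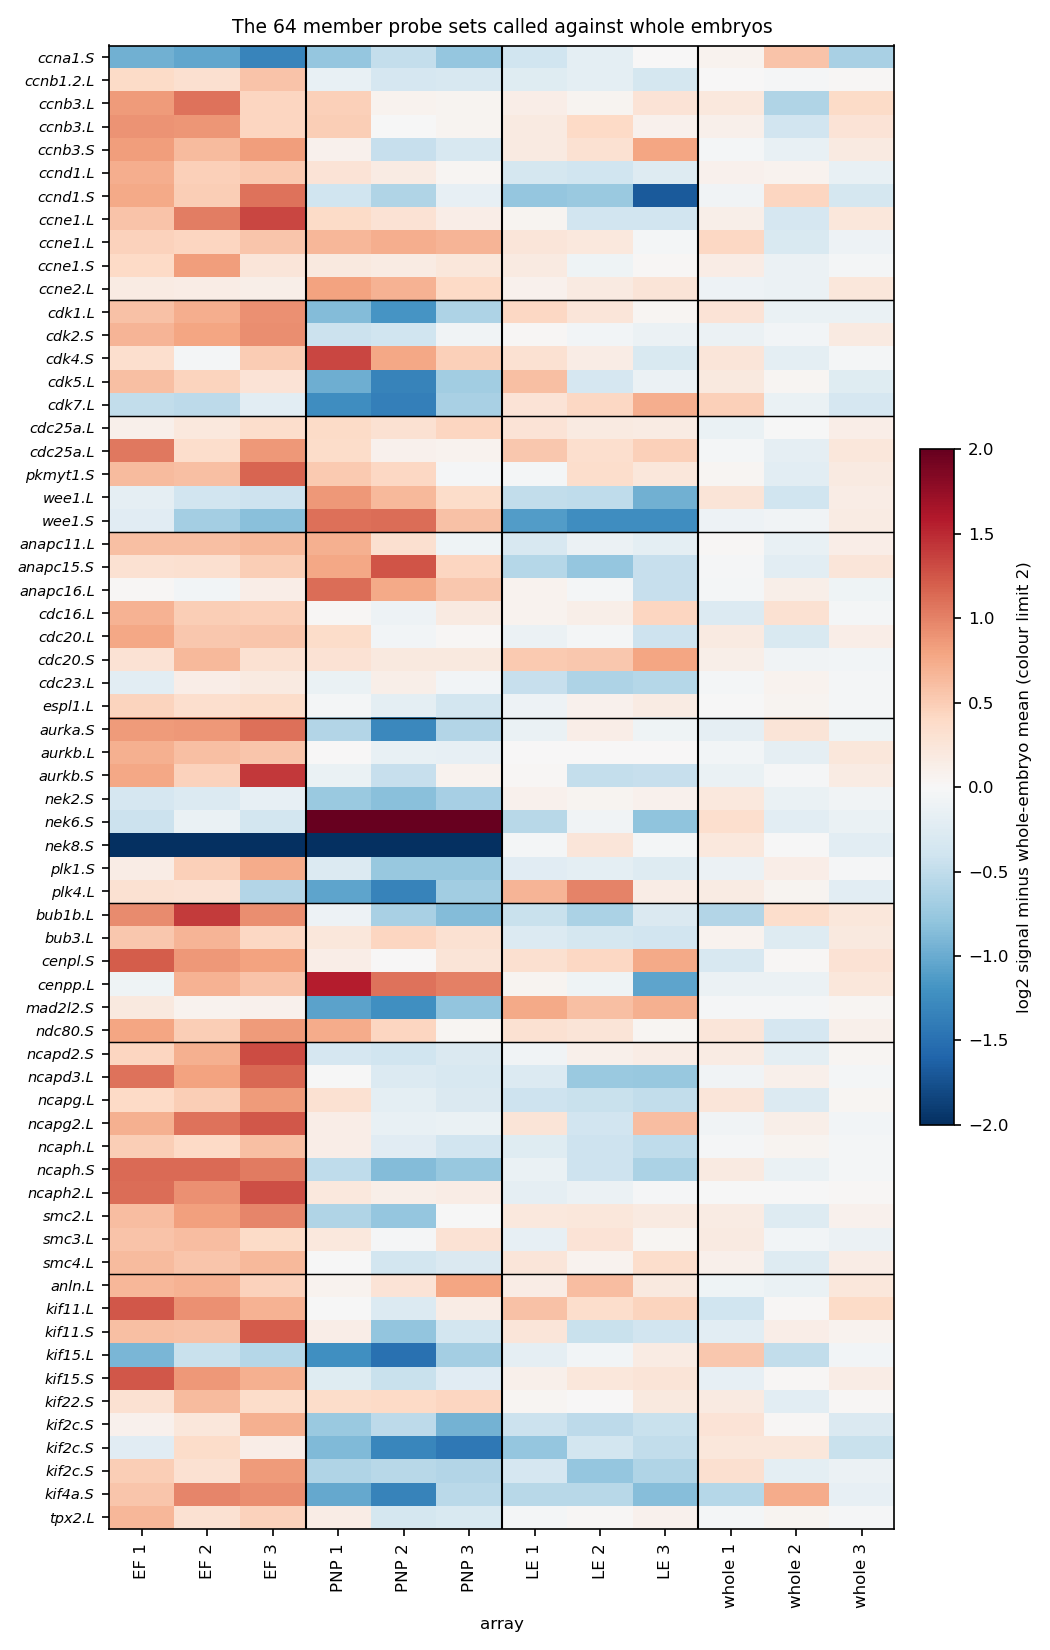
Log2 signal minus the whole embryo mean on each of the 12 arrays for the 64 members called in any region against whole embryos, ordered by role, with colours limited to 2 in either direction and whole embryo arrays as whole. Since 40 of the rows were taken for being higher in EF, raised EF columns follow from the choice. The rows show how far the arrays of a group differ, and *nek6.S* and *nek8.S* pass the colour limit on all 3 PNP arrays.

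Other cell cycle genes, listed apart from the members, were counted in the same way. Of 50 probe sets of 28 further spindle and chromosome genes, 12 were higher in EF than whole embryos and 1 lower (24% and 2%), where 8.83% and 10.6% of all probe sets were. Against PNP 15 were higher and 3 lower in EF (30% and 6%), and against LE 19 and 4 (38% and 8%), where 13.8% and 9.73%, and 14.1% and 10.7%, of all probe sets were. In PNP 9 were higher and 7 lower than whole embryos (18% and 14%), where 10.2% and 12.1% of all were, and in LE 2 and 6 (4% and 12%), where 3.23% and 5.4% were. Among those higher in EF than whole embryos were the cohesin subunit *stag1.S* (1.06) and *esco2.S* (1.25), which acetylates cohesin, and *nusap1.S* (0.90) and *tacc3.L* (0.87) of the spindle. The lower one was *mastl.L* (-2.01), the Greatwall kinase that restrains the phosphatase opposing Cdk1. The other list named E2F, Rb and Myb regulators of S phase and mitotic genes, together with *cks* and *cdc14* genes. Of its 15 probe sets of 13 genes, 1 was higher in EF than whole embryos, *e2f1.L* (0.86), a share of 6.67% where 8.83% of all were. Their median difference was 0.30 in EF, with 13 of 15 above whole embryos, and 0.285 in PNP, with 12 of 15. Against PNP 2 were higher and 1 lower in EF (13.3% and 6.67%), and against LE 3 and 0 (20% higher).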

How the data were processed

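RNA of 4 tissue groups, with 3 arrays each, was measured on Affymetrix *X. laevis* arrays. Per the paper's methods the authors preprocessed the scans with RMA in GeneSpring GX. The deposited values are signal intensity on a linear scale, with every array in its own column and 0 columns of other samples, and not divided by whole embryos. Whether the background step used probe sequence is not given in the sources used here, and it affects signals near the floor. RMA commonly scales arrays to one another, so a change shared by most genes of a tissue may not show in full. The deposited arrays were not fully equal, with median log2 signals from 3.09 (PNP 2) to 3.38 (whole embryo 2).

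The values were used as log2, without an offset, a filter or a further scaling. Of 15611 probe sets 120 controls were left out. The platform annotation gave 1 symbol to 9304 of the rest, several to 195 and none to 5992. Members were matched by symbol, and 3 probe sets with a pair of symbols (of *ccnb2*, *cdc23* and *plk2*) were left out. Of the members 138 matched the gene table of the genome annotation with the same symbol, and 13 have names that mark probes shared by several transcripts. The highest of 27 Bacillus control probe sets was the background ceiling of each array.

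The 6 comparisons among groups were made in limma 3.58.1 under R 4.3.3 (lmFit, eBayes, all arrays, group as the sole term), with Benjamini-Hochberg adjustment over 15491 probe sets and a call at 0.05. Tables and plots were made with Python 3.11.15, numpy 2.4.6, pandas 2.3.3 and matplotlib 3.10.9. The code was tested on simulated data. Arrays give no depth, and 3 per group limit the precision. The members and lists were chosen with earlier results of these data known. Named members were taken by role from those called in any comparison, with all arrays for differences of at least 2-fold, and every cyclin and Cdk gene was named whatever its call. They are told by function, not by size, and a few members without a call were named after their values were seen. Alternatives were other scalings, filters, fits and offsets, single arrays left out, and, chosen after seeing the data, PNP and LE replicate 3 left out together.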

Additional observations from a re-analysis of the deposited data

Results flagged for a closer look

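Some members were called in opposite directions against whole embryos in a pair of regions. They were picked for these calls against shared whole embryo arrays, which fixes that the regions differ, so the differences between regions are given as values without a test. *Cdk1.L* and *aurka.S* were higher in EF and lower in PNP than in whole embryos, and EF exceeded PNP by 1.63 and 1.76 on the log2 scale. The same pattern held for *ncaph.S*, with EF above PNP by 1.81, and for the second probe set of *kif2c.S*, with EF above PNP by 1.13. The call of that *kif2c.S* probe set in EF against whole embryos was lost on leaving out any of 10 arrays, and that in PNP without any 1 PNP array or whole embryo 1 and under median centring and quantile scaling.

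*Wee1.S* had the reverse order and was higher in PNP but lower in EF and LE than in whole embryos, so that EF minus PNP was -1.52 and PNP minus LE was 2.14. Its call in EF was lost on leaving out any of 8 arrays and under median centring. *Mad2l2.S* was lower in PNP and higher in LE, with PNP minus LE at -1.71. *Ncapd3.L* was higher in EF and lower in LE, with EF minus LE at 1.60, and its call in LE was lost on leaving out any of 7 arrays.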

How the results depend on the processing

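In brackets stands the share of all probe sets called under the same setting. The 40 members above whole embryos in EF (28.8%) became 25 in a fit of those groups alone (18% of members, 6.34% of all). A 2-fold limit left 5 (3.6% of members, 2.43% of all). Single arrays left out gave 24 to 37 (17.3% to 26.6% of members, 5.54% to 9.41% of all). By the methods' t-test with Benjamini-Hochberg adjustment the count was 7 (5.04% of members, 1.91% of all). The 3 lower members were 1 by that test (3.38%) and 1 with a single probe set per gene.

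For PNP against whole embryos, 10 higher members were 6 in a fit of both groups alone (6.62%), 2 by the t-test (2.64%), 22 under median centring (21.8%) and 2 with a 2-fold limit (3.36%), and 15 lower were 2 by the t-test (4.38%), 7 at 2-fold (6.78%) and 9 with a single probe set per gene. The balance of higher and lower members thus turned, from 10 and 15 to 22 and 13 under median centring and 15 and 12 under quantile scaling (1935 and 1625 of all 15491 probe sets). For LE, 2 higher members were 1 by the t-test (0.194%), 0 at 2-fold (1.08%) and 1 to 2 with single arrays left out (1.4% to 3.8%), and 4 lower were 1 by the t-test (0.355%), 2 under centring (4.34%), 1 with an offset of 16 (3.85%), 2 at 2-fold (2.92%), 1 with a single probe set per gene and 1 to 5 with single arrays left out (3.22% to 5.7%). Leaving out PNP and LE replicate 3 together gave 1 higher and 1 lower member in LE (1.67% and 3.36%), 8 members lower in EF than in PNP in place of 5 (10.1%), and EF above whole embryos on 33 (9.39%).

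Between regions, EF over PNP fell from 49 to 20 by the t-test (4.93%) and 24 at 2-fold (6.22%), and the 5 lower to 3 (3.74%) and 2 (4.8%). EF over LE fell from 45 to 23 (6.71%) and 13 (5.54%), and the 4 lower to 1 at 2-fold (6.3%) and 2 to 5 with single arrays left out (8.75% to 11%). PNP over LE fell from 20 to 11 (6.4%) and 7 (5.98%), and to 12 to 20 with single arrays left out (9.75% to 13.2%), and the 16 lower to 9 (8.4%) and 7 (6.71%), and to 9 to 16 (9.52% to 12.9%). Single arrays moved several of these counts by over 1.5 times. EF 1, EF 3 and whole embryo 2 did so for the members higher in EF (25, 26 and 24 members, with 5.96%, 6.77% and 6.33% of all). LE 2, LE 3 and each whole embryo array did so for those lower in LE (2, 1, 1, 2 and 2 members). There 3.45%, 3.22%, 4.07%, 4.5% and 4.59% of all were called. LE 3 did so for those higher in LE (1 member, 1.4%) and for those lower in EF than LE (2 members, 9.04%). PNP 1 and PNP 2 did so for those higher in PNP than LE (12 and 13 members, 10.1% and 11%). PNP 2 and LE 3 did so for those lower (9 members each, 9.52% and 10.6%). The cause of these shifts was not tested, except that a 2-fold limit and a single probe set per gene can only lower a count. No called difference of a named member changed its sign under the alternatives run.

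Of 213 named calls 131 held without any single array, and 81 held by the t-test. Replicate numbers in the labels showed no clear pairing of the samples. Deviations of arrays with the same number correlated at -0.17 to 0.21, with 3 of 18 pairs over 0.1, and those with other numbers at -0.22 to 0.13. The highest value was that of PNP 3 with LE 3, and 5 arrays correlated best with one of their own number. With 3 arrays per group this check cannot exclude a pairing. With the replicate number as a block EF exceeded whole embryos on 33 members (8.08%), PNP on 45 (13.3%) and LE on 40 (13.5%). In PNP 10 were higher and 16 lower than in whole embryos (7.19% and 11.5% of members, 9.42% and 11.5% of all). With this block 26 of the 213 named calls were lost.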
